A study of Saccharomyces cerevisiae with 8 samples.

Results

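The genes described here are 9 of the 6225 yeast genes on the array, and all 9 were among the 6045 genes bright enough to test. They were chosen by name and taken as the array's non-control spots for each open reading frame. Of these, 3 are regulators of the peroxide response (YAP1, SKN7 and YBP1), 5 encode oxidoreductases or glutathione transferases (OYE2, OYE3, ECM4, GTT1 and GTT2), and OXR1 encodes a protein of oxidative damage resistance. Transcript levels were measured in Saccharomyces cerevisiae, strain CENPK.2-1C, with 1-colour Cy3 Agilent arrays. Control cells and cells with a mutant TFIIB, called M1 in the series title, were each grown in YPD, a rich glucose medium, without H2O2 or with 4 mM H2O2. All cultures were collected in exponential phase at an OD600 of 1.0. The H2O2 was part of the growth medium, and the labels used here give no length of exposure. The 4 groups hold 2 arrays each, which the series design calls biological replicates, so p-values measure only the spread between these samples.

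Yap1 is a basic leucine zipper transcription factor that peroxide activates through its cysteines: the peroxidase Hyr1, also called Gpx3, relays the oxidation with the help of Ybp1, the oxidised factor is no longer exported from the nucleus, and its target genes are transcribed. Skn7 is a response regulator that receives phosphate from the Sln1 and Ypd1 relay and also acts with Yap1 at a subset of peroxide-induced promoters. Old yellow enzymes (Oye2 and Oye3) are flavin enzymes that use NADPH to reduce unsaturated carbonyl compounds, and glutathione transferases join glutathione to electrophiles or carry out related thiol reactions.

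The general transcription factor TFIIB is encoded by SUA7 (YPR086W, chromosome XVI, 710101 to 711138, plus strand), the gene that was changed. Its processed signal was 27713 ± 4377 units (SD, n = 2) in control cells without H2O2 and 20759 ± 9858 units (SD, n = 2) with H2O2. The arrays labelled mutant gave 6.22 ± 0.187 and 8.05 ± 2.36 units (SD, n = 2), and none of those 4 had it well above background. Dimness was general on those 4 arrays. Their median probe gave 6.04 to 9.75 units, compared with 3547 to 6022 in control cells, although the E1A probes, which report RNA added in known amounts, gave 3210 to 4693 units there and 2621 to 4079 in control cells. The share of probes the scanner software marked as well above background was 21.8% to 41.2%, compared with 94.7% to 97.2% in control cells. A single slide and a single scan hold every array, with H2O2 set by row and strain by column, so position and group cannot be told apart. Because of the dimness, the comparison of control cells with and without H2O2 carries most of the information on these genes. Its groups also lie in different rows of the slide. CENPK.2-1C is a strain of mating type a, and each of the 4 control arrays detected all 6 genes of a list of a-specific markers well above background. Of 4 alpha-specific genes, STE3 and SAG1 were also well above background on all 4, while MF(ALPHA)1 and MF(ALPHA)2 were so on 3 of 4, at 41.7 to 64.4 units as group means. With H2O2, STE3 fell by 0.85 on the log2 scale (limma, adjusted p = 0.0263), a call lost when any 1 control array was left out, and SAG1 at -0.11, MF(ALPHA)1 at -0.071 and MF(ALPHA)2 at 0.12 did not pass. The part of other cells in the values below was not tested.

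**Figure D1:**
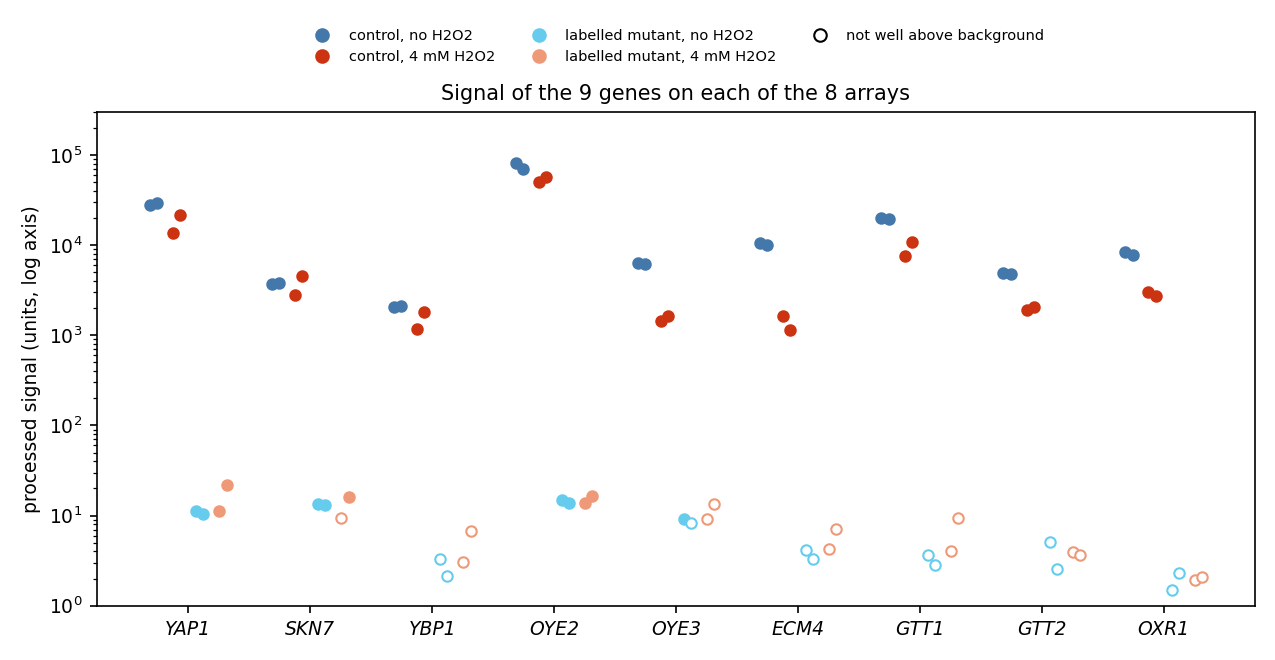
Processed signal (units, logarithmic axis) of the 9 genes on each of the 8 arrays, coloured by group, with open circles for probes that were not well above background. The control arrays read between 1153 and 80826 units for these genes, and the arrays labelled mutant between 1.48 and 21.7 units.

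With H2O2 in control cells, the enzyme genes OYE3 and ECM4 fell and the regulators did not pass the test. ECM4 fell by 2.39 and OYE3 fell by 1.53 on the log2 scale, 5.25-fold and 2.89-fold, while YAP1 changed by -0.22 ± 0.19, SKN7 by 0.44 ± 0.17 and YBP1 by -0.025 ± 0.25 (± is the SE of the fit). None of the 9 genes passed the test as a rise in this fit. Over 15 alternative settings, SKN7 passed as a rise in 2 and YAP1 as a fall in 1. These log2 changes come from signals divided by the 75th percentile of each array, which was 15424 and 15403 units without H2O2 and 9185 and 12898 units with it, and each change is the level with H2O2 minus the level without. The raw units below are not corrected for these differences between arrays.

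Among the regulators, YAP1 (YML007W, chromosome XIII, 253848 to 255800, plus strand) read 27582 and 29437 units in control cells without H2O2 and 13669 and 21790 units with it. The groups did not overlap, with the H2O2 arrays lower, but after scaling the change of -0.22 lay within an interval of -0.67 to 0.22 (95%; limma, adjusted p = 0.431). SKN7 (YHR206W, chromosome VIII, 512732 to 514600, plus strand) read 3680 and 3770 units without H2O2 and 2781 and 4560 units with it. In raw units its H2O2 arrays lay on both sides of the other 2, and after scaling both lay above them, by 0.44 with an interval of 0.043 to 0.83 (limma, adjusted p = 0.0967). YBP1 (YBR216C, chromosome II, 655576 to 657600, minus strand), whose product binds Yap1 and is needed for its oxidation by peroxide, read 2072 and 2139 units without H2O2 and 1163 and 1834 units with it. Its scaled levels overlapped between the groups (limma, adjusted p = 0.949).

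The old yellow enzyme genes differed from each other. OYE2 (YHR179W, chromosome VIII, 462502 to 463704, plus strand) read 80826 and 69790 units without H2O2 and 50739 and 57292 units with it. After scaling, the groups overlapped and its change was 0.024 ± 0.19 (limma, adjusted p = 0.935). OYE3 (YPL171C, chromosome XVI, 226169 to 227371, minus strand) read 6342 and 6107 units without H2O2, and 1425 and 1623 units with it, so both H2O2 arrays were far below both others. It fell by 1.53 ± 0.16, with an interval of -1.92 to -1.15 (limma, adjusted p = 0.00364), and ranked 310 among the 6045 genes ordered from the largest fall. A factor for a whole array enters both genes alike and cancels in the difference between their changes. The change of OYE3 minus that of OYE2 was -1.55 ± 0.079 (SE from the 2 arrays of each group), and it ran from -1.64 to -1.47 over all pairings of an array with H2O2 and one without. After quantile normalization, which is no such factor, it was -1.08. The products are related in sequence, and cross-hybridisation between the probes was not analysed here.

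Of the glutathione transferase genes, ECM4 stood lowest with H2O2 relative to its level without. ECM4 (YKR076W, chromosome XI, 582283 to 583395, plus strand), also called GTO2 and coding for a transferase of the omega class, read 10583 and 9987 units without H2O2 and 1658 and 1153 units with it. The groups lay far apart, 10285 ± 421 against 1406 ± 357 units (SD, n = 2). Its fall of 2.39 ± 0.31 had an interval of -3.13 to -1.65 (limma, adjusted p = 0.00480) and ranked 118 among the falls of the 6045 genes. The H2O2 arrays differed from each other by 1.01 log2 units for ECM4 after scaling, the widest replicate gap of the 9 genes in that group, against 0.21 for the widest gap without H2O2.

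GTT1 (YIR038C, chromosome IX, 423809 to 424513, minus strand), whose product is a transferase associated with the endoplasmic reticulum, read 19913 and 19371 units without H2O2 and 7529 and 10778 units with it. GTT2 (YLL060C, chromosome XII, 21138 to 21839, minus strand), coding for another transferase, read 4924 and 4815 units without H2O2 and 1894 and 2060 units with it. For both genes the H2O2 arrays were the lower ones with no overlap, before and after scaling. Neither passed the test: GTT1 changed by -0.62 ± 0.24 (limma, adjusted p = 0.0937) and GTT2 by -0.80 ± 0.33 (limma, adjusted p = 0.120). The changes of GTT1 and GTT2 differed by 0.18 ± 0.20, less than the spread of that difference, which ran from -0.025 to 0.38 over the pairings. OXR1 (YPL196W, chromosome XVI, 175043 to 175864, plus strand), which is needed for normal resistance to oxidative damage, read 8402 and 7773 units without H2O2 and 3037 and 2764 units with it. The groups were again apart, and the change of -0.98 ± 0.33 did not pass (limma, adjusted p = 0.0648). In a fit of only the control arrays, GTT1 (limma, adjusted p = 0.00650), GTT2 (0.0193) and OXR1 (0.0364) did pass as falls. That fit called 3473 of the 6045 tested genes. With normexp background correction GTT1, GTT2 and OXR1 also passed as falls, where 4235 genes were called.

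**Figure D2:**
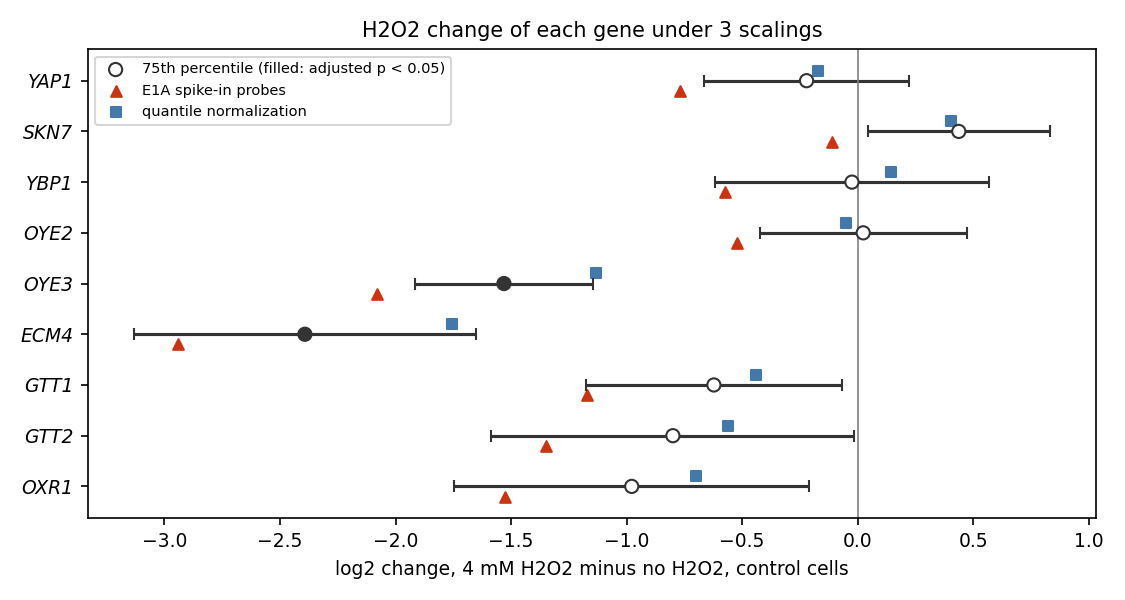
Log2 change of each of the 9 genes with 4 mM H2O2 in control cells (horizontal axis), as circles for the 75th percentile scale with 95% intervals of the fit, triangles for the E1A scale and squares for quantile normalization; filled circles passed an adjusted p of 0.05. ECM4 and OYE3 lie left of 0 on all 3 scales (ECM4 -2.39, -2.94 and -1.76), whereas SKN7 lies right of 0 on 2 of them.

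Counted over the set, 2 of 9 genes passed the test and both fell, where 27.1% of the 6045 tested genes passed, 847 as falls and 790 as rises. After scaling, 6 of the 9 were lower without overlap between the groups and SKN7 was higher without overlap, against 41.3% and 45.3% of all genes, so a lack of overlap by itself was common on these arrays. The median change was -0.62 over the 9 genes, -0.025 over the 3 regulators and -0.80 over the 5 enzyme genes, beside 0.032 over all tested genes. On the E1A scale the median of all genes moved to -0.52 and that of the 9 genes to -1.17. On that scale ECM4 was at -2.94 (limma, adjusted p = 8.15e-05), OYE3 at -2.08 (0.00121), OXR1 at -1.53 (0.0204) and GTT2 at -1.35 (0.0232), so 4 of the 9 fell, where 15.9% of all genes did and 0.480% rose. The regulators were below 0 on the E1A scale, YAP1 at -0.77, YBP1 at -0.57 and SKN7 at -0.11, which put SKN7 on the other side of 0. A signal relative to the array and a signal relative to added RNA answer different questions. The cause of the shift between these scales was not tested.

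**Figure D3:**
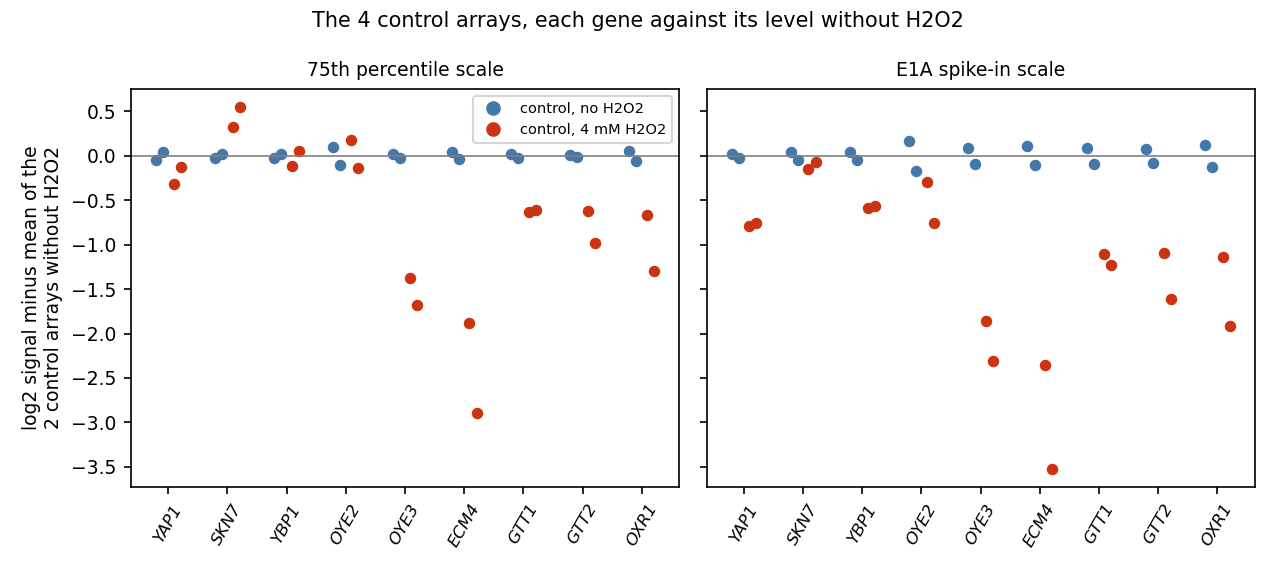
Log2 signal of the 9 genes on each of the 4 control arrays, relative to the mean of the 2 arrays without H2O2, on the 75th percentile scale (left) and the E1A scale (right); points are single arrays. OYE3 and ECM4 have the lowest means with H2O2 on both scales, and the ECM4 points with H2O2 are the most spread.

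The calls for ECM4 and OYE3 rest on a small number of arrays. Over 15 alternative settings, ECM4 ranged from -2.94 to -1.76 and OYE3 from -2.08 to -1.13, and each passed in 14. The exception for both was the fit without the control array without H2O2 replicate 1, in which ECM4 stood at -2.35 (limma, adjusted p = 0.0533) and OYE3 at -1.50 (limma, adjusted p = 0.0506). Between the control arrays without H2O2, the variance over bright probes was 1.43 times that expected from duplicate spots on 1 array, against 42.7 times between the control arrays with H2O2. For the arrays labelled mutant it was 4.02 times without H2O2 and 1.03 times with it, the latter pair differing little beyond spot noise. Counted as 1 sample, the control arrays without H2O2 still gave an adjusted p of 0.0492 for ECM4 and 0.0467 for OYE3 (limma).

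Relative to YAP1, the changes of the enzyme genes ECM4, OYE3, GTT1 and GTT2 lay below 0 in all pairings of arrays, and that of OYE2 did not. The change of a gene minus that of YAP1 does not depend on the factor by which an array is scaled, but quantile normalization, which treats bright and faint probes differently, can alter it. For ECM4 this difference was -2.17 ± 0.60 (SE from 2 arrays a group), from -2.86 to -1.48 over the pairings of arrays, and -1.58 after quantile normalization. For OYE3 it was -1.31 ± 0.25, from -1.63 to -0.99 over the pairings, and -0.96 after quantile normalization. GTT2 gave -0.58 ± 0.28, from -0.92 to -0.24, and GTT1 gave -0.40 ± 0.10, from -0.55 to -0.26. OYE2 went the other way, at 0.25 ± 0.29, and its pairings, from -0.16 to 0.65, lay on both sides of 0. Outside the enzyme genes, OXR1 minus YAP1 was -0.76 ± 0.42, from -1.26 to -0.25. Within the regulators, SKN7 minus YAP1 was 0.66 ± 0.036, from 0.61 to 0.71, and YBP1 minus YAP1 was 0.20 ± 0.025, from 0.16 to 0.23. These differences are descriptions of 4 arrays. The activity of Yap1, which is set by oxidation of the protein and its place in the cell, was not measured.

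Over the 4 control arrays, genes with a profile near that of ECM4 were TFS1, an inhibitor of carboxypeptidase Y, and PYK2, a pyruvate kinase. Their Euclidean distances in centred log2 level were 0.0701 and 0.116, where the median distance of the 5141 genes compared was 2.54. TFS1 fell by 2.35 and PYK2 fell by 2.36. Both were picked for a profile like that of ECM4 on these same arrays, so their falls are alike by selection. The nearest genes also lie far below the median distance by selection, here and below. Nearest to OYE3 were PHD1, a transcription factor of filamentous growth, VPS73 and CAR1, the arginase, at 0.0383, 0.0620 and 0.0693, with a median of 1.61. Nearest to YAP1 were VNX1, a vacuolar cation exchanger, CHS3, a chitin synthase, and PSG1, at 0.0224, 0.0268 and 0.0366, with a median of 0.537.

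The other genes of the pathway were counted in the same comparison. Of the 7 genes that act on Yap1, its relay enzymes and its nuclear carriers, 0 passed in limma, where 27.1% of all tested genes did, and 0 had an unadjusted p under 0.05, where 39.9% did. The values with the smallest p were 0.77 for PSE1, the importin of Yap1 (limma, adjusted p = 0.168), 0.29 for YBP2, a relative of YBP1 (0.196), -0.43 for TRX2 (0.384) and 0.43 for TRX1 (0.466), both thioredoxins. The list's median was 0.15, or -0.40 on the E1A scale. Of 20 other known targets of Yap1, alone or with Skn7, 4 fell, 1 rose and 15 did not pass. The share that passed was close to the 27.1% of all genes, and the median was -0.15 (E1A scale -0.69). TRX2 and TSA1, which did not pass, are counted both in this list and among the 7 genes above. SRX1, the sulfiredoxin that repairs overoxidised peroxiredoxins, fell by 1.83 (limma, adjusted p = 0.0154), AAD14 fell by 0.75 (0.0205), AAD4 fell by 0.90 (0.0249), and ZWF1, the first enzyme of the pentose phosphate pathway, fell by 0.63 (0.0384). The AAD genes are near-identical aryl-alcohol dehydrogenase copies, so their signals cannot be assigned with certainty. ATR1, a multidrug exporter, went against the list and rose by 0.87 (limma, adjusted p = 0.00884), but on the E1A scale it stood at 0.32.

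Of all 6045 tested genes, 847 passed as falls and 790 as rises, 27.1% in either direction. Of the 11 genes of the Yap family and the Skn7 phosphorelay, 2 passed in either direction, no larger a share, and both fell. They were CIN5, also called YAP4, which fell by 2.52 (limma, adjusted p = 0.00864), and YAP6, which fell by 1.31 (0.00747). The relay protein gene YPD1 was at 0.53 (0.0700) and SSK1, the other response regulator of that relay, at -0.69 (0.0840). The median of these 11 genes was -0.043 (E1A scale -0.59). Among 10 other glutathione transferase and glutathione enzyme genes, 3 passed in either direction, also near 27.1%, and all 3 fell. The median of the 10 genes was -0.54 (E1A scale -1.09). The glutaredoxin genes GRX2 and GRX1 fell by 1.00 (limma, adjusted p = 0.0133) and fell by 0.84 (0.0199). GEX1, a glutathione exchanger with a near-identical copy, fell by 0.95 (limma, adjusted p = 0.0209). GTO1, a relative of ECM4, was at -0.49 (0.0808).

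Of 12 other NAD(P)H oxidoreductase genes, 11 were bright enough to test, and 4 of them fell with none rising. Over all 6045 tested genes 27.1% passed, 847 as falls and 790 as rises. PST2, a flavodoxin-like protein, fell by 0.92 (limma, adjusted p = 0.00904) and its relative YCP4 fell by 0.80 (0.0291). ZTA1, a quinone reductase of the zeta-crystallin type, fell by 1.56 (0.0191), and the aldose reductase GRE3 fell by 0.87 (0.0430). The median was -0.80 (E1A scale -1.35), beside 0.032 over all genes (E1A scale -0.52). Leaving out either control array without H2O2 left 0 called genes in each of these 5 lists, and counting both arrays as 1 sample did the same, with 124 genes then called in all in place of 1637. Without control replicate 2 with H2O2, the oxidoreductase list had 0 called genes, the glutathione list 0, the list of other Yap1 targets 1 and the Yap family list 2. With quantile normalization 1 gene of the other Yap1 targets was called and 0 in the remaining 4 lists. In the other direction, normexp background correction called 5 of the 7 Yap1 signalling genes, 4 of them as rises. It called 4235 of all 6045 tested genes. Among these were 10 of 11 oxidoreductase genes, 8 of 10 glutathione genes, 14 of 20 other Yap1 targets and 5 of 11 Yap family genes. A fit of only the compared groups called 3 of the 7 Yap1 signalling genes and 3473 of all 6045.

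**Figure D4:**
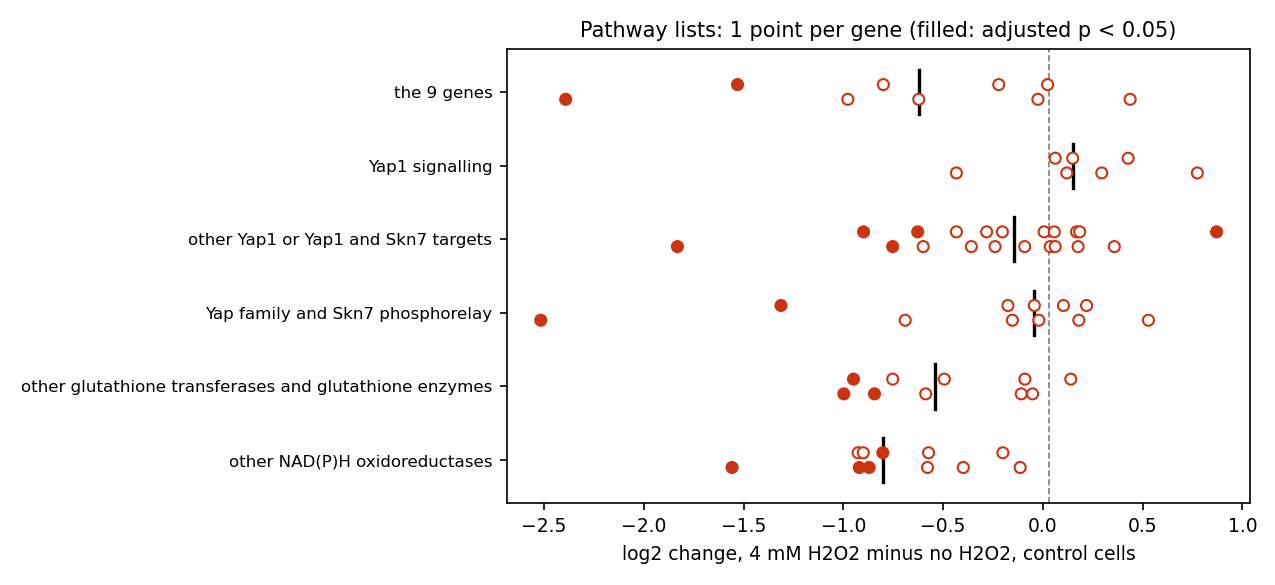
Log2 change with 4 mM H2O2 in control cells for the 9 genes and 5 lists of pathway genes, 1 point per gene, filled where the adjusted p was under 0.05; black bars are list medians and the dashed line is the median of all tested genes (0.032). The oxidoreductase and glutathione lists lie mostly left of the dashed line (medians -0.80 and -0.54) and 6 of the 7 Yap1 signalling genes lie right of it, with TRX2 at -0.43 on the left.

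On the arrays labelled mutant the 9 genes read 1.48 to 14.97 units without H2O2 and 1.94 to 21.7 units with it. Without H2O2, 5 of the 9 were not well above background on either array and 3 (YAP1, SKN7 and OYE2) were on both, and with H2O2 these numbers were 6 and 2 (YAP1 and OYE2). YAP1 read 11.3 and 10.3 units without H2O2 and 11.2 and 21.7 units with it. OYE2 read 14.97 and 13.7 units without H2O2 and 13.9 and 16.5 units with it, against at least 50739 units on each control array. Genes not detected there entered the test only through the control arrays, so no count of passes over the 9 is given. Relative to the 75th percentile of each array, which was at 9.87 to 14.5 units here, SKN7 was higher than in control cells without H2O2, by 2.41 (limma, adjusted p = 7.63e-06), where 50.5% of all genes passed as higher. OYE2 was lower, at -1.82 (6.93e-05), as was YAP1, at -0.83 (0.00463), a call lost with quantile normalization (-0.53, 0.152), and 28.8% of all genes passed as lower. OYE3, detected on 1 of the 2 arrays, stood at 1.05 (0.000639), but at 0.32 with the array median as the scale (0.115). With H2O2, OYE2 was lower, at -1.97 (limma, adjusted p = 4.29e-05), YAP1 at -0.29 did not pass (0.195), and SKN7, detected on 1 of the 2 arrays, stood at 1.65 (5.86e-05). There 51.7% of all genes passed as higher and 28.3% as lower.

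These directions belong to the scale. On the E1A scale all 9 genes were lower on the arrays labelled mutant in both media, as were 99.6% and 99.4% of all genes. Without H2O2, SKN7 was at -8.42, YAP1 at -11.66 and OYE2 at -12.65, and with H2O2 YAP1 was at -10.43 and OYE2 at -12.12. For a probe clearly detected on neither array of a group, the fold is a bound, taken against its own signal or the array's faintest clearly detected probe, whichever was higher. On the 75th percentile scale the bound gave GTT1 at least 1.75-fold lower without H2O2 and at least 1.08-fold lower with it. The bounds themselves were not tested. The fit, which used the signals not clearly detected, gave -2.05 without H2O2 (limma, adjusted p = 0.000120) and -0.67 with it (0.0311). The latter call was lost in 5 alternatives, and with normexp GTT1 was higher instead, at 0.33 (limma, adjusted p = 0.000461). Without replicate 1 of the arrays labelled mutant with H2O2 it stood at -0.33. Without either control array with H2O2 it stood at -0.69 and -0.66. There was no fold for YBP1, ECM4, GTT2 and OXR1 in either medium or for OYE3 with H2O2. On the E1A scale GTT1 was at least 3181-fold and ECM4 at least 1665-fold lower without H2O2, and at least 1229-fold and at least 189-fold lower with it. In the authors' deposited table for the medium with H2O2, OYE3 is 3.70-fold up (corrected p = 0.00775) and OXR1 14.9-fold down (0.0394), while ECM4 is 1.39-fold up (0.299). In the authors' deposited table for the medium without H2O2, GTT1 is 6.68-fold down (corrected p = 0.00525), ECM4 3.35-fold down (0.00568) and SKN7 4.53-fold up (0.00868). Of these genes, only SKN7 was well above background on the arrays labelled mutant of the medium named. The deposited folds of OYE3, OXR1, ECM4 and GTT1 thus set a control signal against readings not clearly detected, and their sizes cannot be read as measured.

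Between the arrays labelled mutant with and without H2O2, 0 of the 9 genes passed in limma, where 0.0331% of all genes passed as higher, and 1 of the 9, GTT1, had an unadjusted p under 0.05 (0.75, adjusted p = 0.262), where 12.6% of all genes did. None passed under any of the 14 alternatives of that comparison. OYE3 was at 0.14 ± 0.16 and ECM4 at 0.37 ± 0.31 there, both from probes at or near background.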

How the data were processed

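Expression was measured on 8 arrays, which the sample titles place in 4 groups with their replicate numbers. The scanner files give spot intensity as Feature Extraction 10.7.1.1 wrote it, per the file headers, including a processed signal from which background was subtracted and a detection flag. The authors' deposited tables (1 for each medium) give per gene a p-value, its corrected form, an absolute fold change and log2 normalized values, per the file headers. They name an unpaired test. The log2 columns were mapped to groups only, and 8 columns of raw values and 4 emptied rows of each table were not used here.

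Log2 processed signals were averaged over a probe's 2 spots and set relative to the 75th percentile of the same array. Control spots (536 an array) and outlier-marked spots were left out, and none were saturated. For the 29 genes with several probes the brightest was used. A gene was tested if some group had it clearly detected on both of its arrays (6045 of 6225 genes). The test was limma 3.58.1 under R 4.3.3, with all 4 groups fitted together (lmFit, eBayes; residual degrees of freedom 4, prior 3.10). The p-values are two-sided, were adjusted by Benjamini-Hochberg over all tested genes of a comparison, and count as called under 0.05. The spread is pooled over groups, though replicate differences had SDs from 0.14 (control, no H2O2) to 0.62 (labelled mutant, no H2O2). The number of arrays limits the precision. The fit was tested on simulated data. The E1A scale uses 7 of 10 spike-in probes, those well above background on all arrays.

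Gene positions were read from descriptions held by the authors' deposited tables, and symbols from a RefSeq table (5737 genes matched by locus tag). No sequence is printed, and the planned search of promoters for motifs was not run.

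The members, the lists and the tests were chosen with earlier results of these data known. The genes named are the 9 members, SUA7, the 3 genes nearest to YAP1, OYE3 and ECM4 over the control arrays, and of each list up to 4 genes with the smallest p for H2O2 in control cells plus up to 2 called genes against the list's direction. One of the genes near ECM4 is not reported here. Markers of mating type are named besides. The alternatives were other scalings, normexp background correction (offset 50, on median signal and median background columns), other filters on dim probes, all probes averaged, fits restricted to the groups compared, a replicate block, the authors' normalized values, their unpaired test, the control arrays without H2O2 as 1 sample and leaving out each array in turn.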

Additional observations from a re-analysis of the deposited data

Results flagged for a closer look

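For 3 of the 9 genes the H2O2 change in control cells differed from the change between readings of the arrays labelled mutant, by the interaction term of the fit. The change in control cells minus the change on the arrays labelled mutant was -1.67 ± 0.23 (SE) for OYE3 (limma, adjusted p = 0.0195), -2.76 ± 0.44 for ECM4 (0.0235) and -1.37 ± 0.33 for GTT1 (0.0438). Over all genes 11.6% passed this test, 337 as higher and 363 as lower. ECM4 and GTT1 were not well above background on any array labelled mutant, and OYE3 on 1 of 4. These genes entered the test through the control arrays, the second change in each difference is one between readings at or near background, and no response of the mutant cells can be read from it. GTT1 changed by -0.62 in control cells and by 0.75 on the arrays labelled mutant, and neither value passed alone.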

How the results depend on the processing

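With 2 arrays a group the counts depended on the setting. For H2O2 in control cells, the 1637 called genes became 110 with quantile normalization, 993 on the E1A scale (29 higher and 964 lower, against 790 and 847), 4235 with normexp, 3473 with only the compared groups fitted, 124 with the control arrays without H2O2 as 1 sample, and 85 to 1201 with 1 array left out, the lowest without control replicate 1 without H2O2. The called genes among the 9, 2 in the reported fit, became 4 on the E1A scale, 7 with normexp, 6 with only the compared groups and 0 to 2 with 1 array left out. For the arrays labelled mutant against control, 1 setting kept only genes well above background on all compared arrays. It called 1241 of 1426 tested genes without H2O2 and 1186 of 1318 with H2O2. Of the 9 genes, this filter kept YAP1, SKN7 and OYE2 without H2O2, and all 3 were called. With H2O2 it kept YAP1 and OYE2, and only OYE2 was called. The unpaired test named in the deposited tables called 3784 of the 6045 genes with H2O2. Between the arrays labelled mutant, the 2 called genes became 91 with quantile normalization, 1 on the E1A scale and with the percentile over well-measured genes, 0 with normexp, the all-arrays filter, only the compared groups or the replicate block, and 0 to 328 with 1 array left out, with 184 and 328 without the 1st and the 2nd array without H2O2.

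Scaling moved the split of genes called higher or lower in mutant against control. Without H2O2 it was 3050 and 1741 in the reported fit, 2332 and 2450 with the array median, 2122 and 2010 with quantile normalization, 3 and 6021 on the E1A scale, 2321 and 2347 with the percentile over well-measured genes, 4244 and 1320 with normexp and 1923 and 1896 with the authors' values. With H2O2 the split was 3127 and 1709, then 2395 and 2464, 2120 and 2016, 4 and 6010, 2442 and 2282, 4297 and 1355, and 2022 and 2060 in the same order.

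Shared replicate numbers did not establish pairs: same-numbered arrays correlated by 0.21 after removing group means for H2O2 in control cells, and by 0.010, 0.012 and -0.072 in the other comparisons. With the replicate block 1420 genes and 2 of the 9 were called for H2O2 in control cells.

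Some values of the 9 genes changed direction, and the cause was not tested. For H2O2 in control cells, OYE2 was at -0.049 with quantile normalization, -0.52 on the E1A scale and -0.13 to 0.18 with 1 array left out. SKN7 was at -0.11 on the E1A scale. YBP1 was at 0.010 with the array median, 0.14 with quantile normalization and -0.11 to 0.058 with 1 array left out. For the arrays labelled mutant against control without H2O2, the E1A scale gave -8.42 for SKN7, -9.92 for YBP1, -9.77 for OYE3 and -10.70 for GTT2. Normexp gave 0.51 for ECM4 and 0.78 for OXR1. Quantile normalization gave -0.75 for YBP1 and -1.02 for GTT2, and the authors' values gave -0.81 and -1.06. GTT2 was also at -0.60 with the array median, -0.56 with the percentile over well-measured genes and -0.31 to 0.56 with 1 array left out. With H2O2, the E1A scale gave -8.50 for SKN7, -8.66 for YBP1, -7.42 for OYE3, -8.29 for ECM4 and -9.35 for GTT2. Normexp gave 0.33 for GTT1 and 1.62 for OXR1. Quantile normalization gave 0.27 for YAP1 and -0.67 for GTT2, and the authors' values gave 0.25 and -0.72. Between the arrays labelled mutant, the E1A scale gave 0.0041 for OYE2, 0.0039 for GTT2 and 0.043 for OXR1, and normexp gave -0.026 for ECM4 and -0.0014 for GTT1. With 1 array left out, OYE2 ran from -0.27 to 0.017, GTT2 from -0.56 to 0.31 and OXR1 from -0.48 to 0.30.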
